A study of Mus musculus with 6 samples.

Results

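Calcium-binding S100 proteins, membrane-binding annexins, sugar-binding galectins and the filament protein vimentin form a set whose transcripts are typical of effector-memory T cells. The 10 genes described here are S100a4, S100a6, S100a10, S100a11, Anxa2, Anxa5, Anxa6, Lgals1, Lgals3 and Vim. These were chosen by symbol from a table of 24421 genes, with earlier results of these data known. All 10 were in the table and were tested. They were measured by RNA sequencing in regulatory T cells (Tregs, suppressive CD4 T cells that depend on Foxp3) from spleen and lymph nodes of mice, in 3 Srebp2cKO libraries (replicates 6, 7 and 8) and 3 Srebp2WT libraries (replicates 1, 3 and 5). The Srebp2cKO genotype is given as Srebp2FL/FL-Foxp3YFPCRE+/-, that is, homozygous floxed Srebf2 together with a Cre and yellow fluorescent protein expressed from Foxp3. The Srebp2WT genotype is given as Srebp2WT/WT-Foxp3YFPCRE+/+, so both genotypes carry the Cre, with a different number of alleles. Foxp3 is X-linked, and in a +/- female some Tregs need not use the Cre allele. The labels give neither age nor sort gate. The comparison asks how Tregs that have lost SREBP2, an activator of genes for making and taking up cholesterol, differ from Tregs that keep it.

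S100 proteins bind calcium through EF-hand motifs and then attach to partner proteins, among them nonmuscle myosin and annexins. Annexins bind membrane phospholipids when calcium is present, and annexin A2 forms a complex with S100A10 at the inner face of the plasma membrane. Galectins bind beta-galactoside sugars on glycoproteins, and galectin-1 is a known mediator of Treg suppression. Vimentin is the main intermediate filament of lymphocytes. Many of these transcripts are low in naive T cells and higher after T cells have been activated.

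Libraries held 13918321 to 17249898 counts assigned to genes. Srebf2, the gene for SREBP2, stood at 12.4 ± 1.56 CPM in Srebp2cKO and 185 ± 10.9 CPM in Srebp2WT (CPM, reads of a gene relative to library size, with TMM factors; mean ± SD over 3 libraries per genotype, as in all such values that follow), a log2 fold change of -3.91 (edgeR adjusted p = 1.5e-08). Foxp3 stood at 435 ± 27.0 CPM in Srebp2cKO and 454 ± 11.5 CPM in Srebp2WT (log2 fold change -0.06, edgeR adjusted p = 0.611). The T cell genes Cd4 and Cd3e held at least 6798 and 8171 counts in every library. Il2ra, another Treg gene, was higher in Srebp2cKO (log2 fold change 0.41, edgeR adjusted p = 0.0101). For Ctla4 every Srebp2cKO library lay above every Srebp2WT library (log2 fold change 0.23, edgeR adjusted p = 0.0897). For Ikzf2 every Srebp2cKO library lay below every Srebp2WT library (log2 fold change -0.26, edgeR adjusted p = 0.0645). The slope of log2 CPM on transcript GC content, per 10 percentage points, was -0.53, -0.78 and -0.65 in Srebp2cKO replicates 6, 7 and 8 and -0.39, -0.36 and -0.51 in Srebp2WT replicates 1, 3 and 5, so it was steeper in every Srebp2cKO library. The labels do not state whether libraries of one genotype are from different animals, and p-values therefore reflect spread between libraries that may be technical.

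S100a6, S100a11 and Anxa2 fell in Srebp2cKO Tregs, and none of the 10 genes rose. The rule for a call was a false discovery rate of 0.05 in edgeR's quasi-likelihood test, adjusted over all 11932 tested genes, at which 6.61% of tested genes were called, 4.24% lower and 2.37% higher. The remaining 7 genes did not pass, among them 4 with negative log2 fold changes (S100a4, S100a10, Lgals1 and Lgals3) and 3 with positive ones (Anxa5, Anxa6 and Vim). In 5 of the 10 genes (S100a6, S100a10, S100a11, Anxa2 and Lgals1) every Srebp2cKO library lay below every Srebp2WT library, a separation seen in 15.5% of tested genes. The median log2 fold change was -0.63 over the 10 genes, with a range of -1.50 to 0.19, and -0.00015 over all tested genes. Because the 10 genes were chosen with earlier results of these data known, such comparisons with all genes are a description. With the GC trend removed, an alternative chosen after seeing the data, the same 3 genes passed (log2 fold changes of -1.17 for S100a6, -0.75 for Anxa2 and -0.72 for S100a11). In bulk RNA, fewer cells that express a gene and less of its RNA per cell cannot be told apart.

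**Figure D1:**
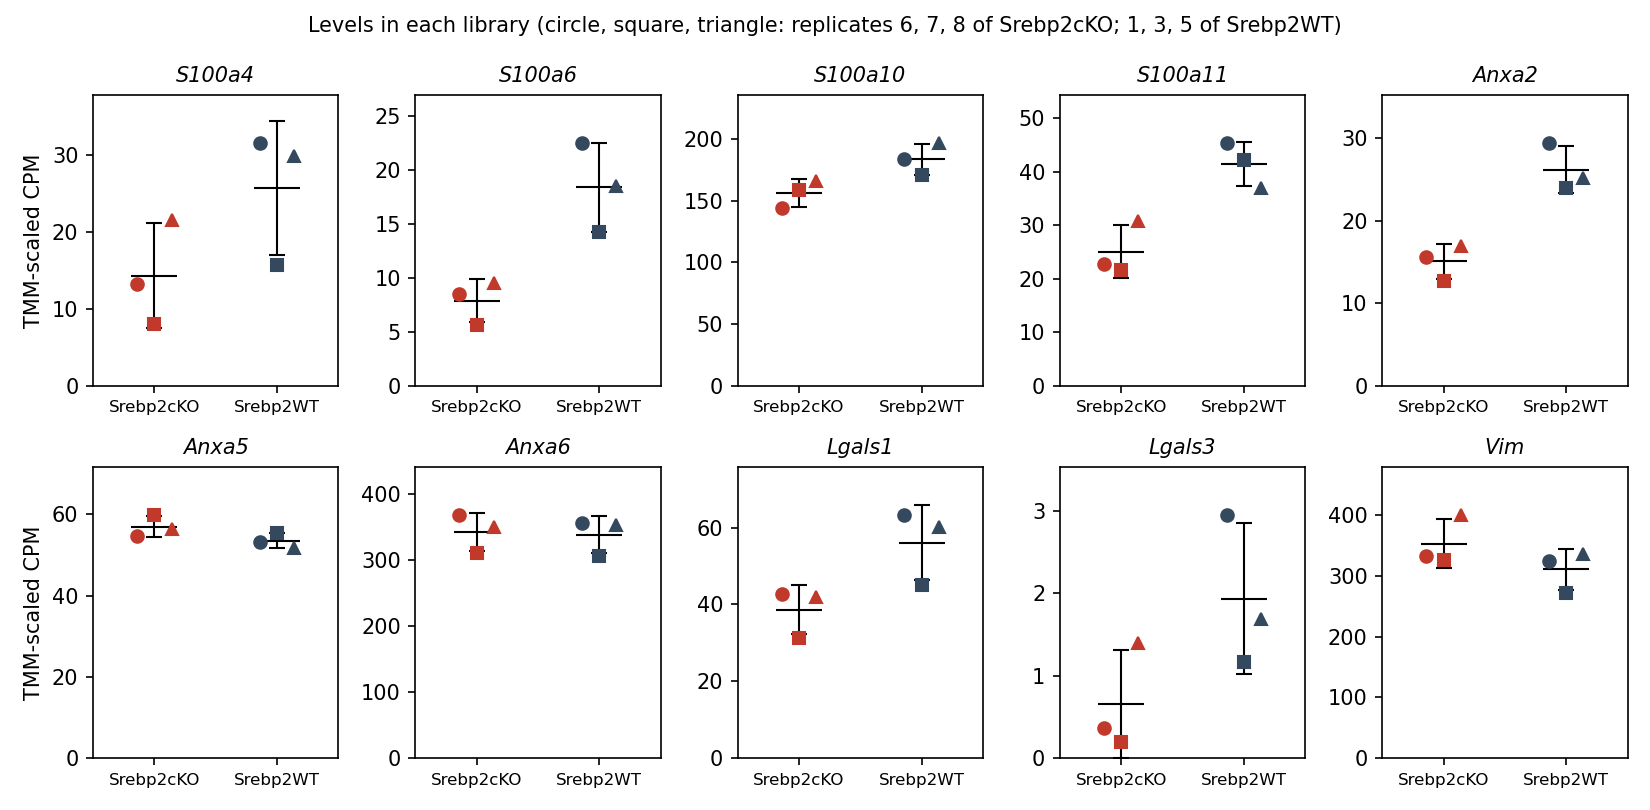
TMM-scaled CPM (y axis, from 0) of each gene in the 3 Srebp2cKO libraries (red) and the 3 Srebp2WT libraries (dark blue), with one point per library and bars for the mean and SD. For S100a6, S100a10, S100a11, Anxa2 and Lgals1 all red points lie below all blue ones, while those of Anxa5, Anxa6, Vim, S100a4 and Lgals3 overlap.

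Sequence before the start sites is shown for the 3 genes that fell, from the RefSeq promoter table on GRCm38.p6, which held 7 of the 10 genes. Each run is the 300 bases from 250 before to 50 after the gene's start, 5′ to 3′ on the gene's strand (plus strand for all 3), and capitals mark 2 motifs searched on both strands, the AP-1 site TGANTCA and the E-box CACGTG, whose matches did not overlap each other.
S100a6, chr3:90612644-90612943: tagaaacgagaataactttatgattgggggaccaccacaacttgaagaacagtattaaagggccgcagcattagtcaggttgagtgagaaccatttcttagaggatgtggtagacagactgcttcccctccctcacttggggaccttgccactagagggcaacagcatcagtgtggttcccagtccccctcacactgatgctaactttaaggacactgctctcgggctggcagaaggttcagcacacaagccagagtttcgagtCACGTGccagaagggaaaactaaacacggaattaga
S100a11, chr3:93520246-93520545: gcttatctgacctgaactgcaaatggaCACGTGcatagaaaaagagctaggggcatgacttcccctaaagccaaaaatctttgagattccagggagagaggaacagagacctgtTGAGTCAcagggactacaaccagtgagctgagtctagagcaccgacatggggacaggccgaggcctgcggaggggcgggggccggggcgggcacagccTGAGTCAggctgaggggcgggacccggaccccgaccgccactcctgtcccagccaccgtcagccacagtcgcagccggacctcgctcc
Anxa2, chr9:69453433-69453732: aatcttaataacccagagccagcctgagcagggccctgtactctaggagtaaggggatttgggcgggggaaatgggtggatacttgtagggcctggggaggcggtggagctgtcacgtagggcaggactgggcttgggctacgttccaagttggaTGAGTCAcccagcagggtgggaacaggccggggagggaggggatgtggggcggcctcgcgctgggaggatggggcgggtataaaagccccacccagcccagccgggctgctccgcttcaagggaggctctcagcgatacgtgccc

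The AP-1 letters were in 2 of the 7 windows, those of S100a11 and Anxa2, and in 7.81% of 32851 mouse promoter windows of the same length. The E-box letters were in 2 of the 7 windows, those of S100a6 and S100a11, and in 7.15% of all windows. The Sp1 box GGGCGG was in 3 of the 7 windows, those of S100a11, Anxa2 and Lgals3, and 35.7% of all. The CCAAT box, letters CCAAT, was in 3 of the 7, those of S100a6, Lgals3 and Vim, and 37.4% of all. Matches to these boxes are present in the runs above but not marked there. The letters CACCCCA, the inner part of a sterol regulatory element that SREBP proteins bind, were in 1 of the 7 windows, that of S100a4, and in 7.62% of all. A match describes letters in the window and does not show a bound site.

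S100a6, also called calcyclin, lies on chromosome 3 from 90612882 to 90624181 (GRCm38). It held 116, 88 and 163 counts in the Srebp2cKO libraries, replicates 6, 7 and 8, which is 8.52, 5.68 and 9.50 CPM. In the Srebp2WT libraries, replicates 1, 3 and 5, it held 359, 221 and 274 counts, which is 22.5, 14.2 and 18.5 CPM. The highest Srebp2cKO library lay below the lowest Srebp2WT library. The Srebp2cKO mean was 42.9% of the Srebp2WT mean, with a log2 fold change of -1.22 (SE 0.21, 95% interval -1.69 to -0.75, edgeR adjusted p = 0.0118). Without Srebp2WT replicate 1 the log2 fold change was -1.05 and the adjusted p 0.0518.

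S100a11, a partner of annexin A1 whose gene lies on chromosome 3 from 93520488 to 93526287, had 22.8, 21.6 and 30.7 CPM in Srebp2cKO and 45.3, 42.1 and 37.0 CPM in Srebp2WT. All Srebp2cKO libraries were lower, with replicate 8 nearest to Srebp2WT. On the log2 scale Srebp2cKO differed from Srebp2WT by -0.72 (SE 0.14, 95% interval -1.03 to -0.42), with an edgeR adjusted p of 0.0182. The call was lost without Srebp2WT replicate 1 (adjusted p = 0.0876) and without Srebp2WT replicate 3 (adjusted p = 0.0721).

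S100a4, also known as fibroblast-specific protein and a binding partner of nonmuscle myosin heavy chain, lies 5′ of S100a6 in the same cluster, from 90603771 to 90606045. It had 13.2, 8.06 and 21.6 CPM in Srebp2cKO and 31.5, 15.7 and 29.9 CPM in Srebp2WT. Srebp2cKO replicate 8 stood above Srebp2WT replicate 3, so the genotypes overlapped. Its log2 fold change of -0.84 (SE 0.33) did not pass (edgeR adjusted p = 0.125). Without Srebp2cKO replicate 8 it was -1.28 with an adjusted p of 0.0483, the 1 of 14 other settings in which it passed. Without Srebp2cKO replicate 7 it was -0.56 (edgeR adjusted p = 0.308), and without Srebp2WT replicate 1 it was -0.66 (0.348). An exon of S100a4 shares bases with the gene model Gm42674 on the same strand, which has no line in the table.

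S100a10, the light chain of the annexin A2 complex, was the most abundant of the 4 S100 genes and lies on chromosome 3 from 93555080 to 93564643. Its levels were 144, 158 and 166 CPM in Srebp2cKO and 183, 171 and 196 CPM in Srebp2WT. The libraries did not overlap, but the difference was small, a log2 fold change of -0.23 (SE 0.08), and did not pass (edgeR adjusted p = 0.105). In none of 14 other settings of the fit did it pass.

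Anxa2 encodes annexin A2, which takes part in membrane repair, secretion and endocytosis, and lies on chromosome 9 from 69453620 to 69491795. It held 212, 197 and 291 counts in Srebp2cKO, or 15.6, 12.7 and 17.0 CPM. In Srebp2WT it held 469, 372 and 372 counts, or 29.4, 24.0 and 25.2 CPM. All Srebp2cKO libraries lay below all Srebp2WT libraries. The Srebp2cKO mean was 57.6% of the Srebp2WT mean, with a log2 fold change of -0.79 (SE 0.13, 95% interval -1.09 to -0.50, edgeR adjusted p = 0.0101). The call held in each of the 14 other settings, with log2 fold changes of -0.89 to -0.69. It held narrowly without Srebp2WT replicate 1 (log2 fold change -0.70, edgeR adjusted p = 0.048). The antisense gene model Gm16144 shares bases with an Anxa2 exon and has no line in the table, and whether the counting used strand is not stated.

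Per kilobase of its longest transcript, S100a10 stood far above Anxa2, whose protein it joins. The ratio of S100a10 to Anxa2 in CPM per kilobase was 30.8, 41.5 and 32.6 in Srebp2cKO libraries and 20.8, 23.7 and 25.9 in Srebp2WT libraries. Every Srebp2cKO ratio was above every Srebp2WT ratio, as the larger log2 difference of Anxa2 gives, and no test was made of the ratio. Its size depends on the transcript lengths used, 685 bases for S100a10 and 2280 bases for Anxa2.

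Anxa5, whose protein binds phosphatidylserine and is used as a stain for dying cells, had 54.7, 59.7 and 56.3 CPM in Srebp2cKO and 53.3, 55.5 and 51.8 CPM in Srebp2WT. These ranges overlapped, and the log2 fold change of 0.09 (95% interval -0.09 to 0.26) did not pass (edgeR adjusted p = 0.477). Anxa6, a large annexin with a duplicated core that binds late endosomes and cholesterol-rich membranes, had 367, 310 and 349 CPM in Srebp2cKO and 356, 305 and 352 CPM in Srebp2WT. It differed by 0.02 on the log2 scale (95% interval -0.18 to 0.22, edgeR adjusted p = 0.919), with a sign that turned under total-count scaling (-0.018) and upper-quartile scaling (-0.0054). Anxa5 lies on chromosome 3 from 36448923 to 36475894 and Anxa6 on chromosome 11 from 54979108 to 55033445, both on the minus strand.

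Lgals1 encodes galectin-1, which can trigger death or arrest of conventional T cells. Its levels were 42.7, 31.3 and 41.8 CPM in Srebp2cKO and 63.2, 45.1 and 60.1 CPM in Srebp2WT. The genotypes did not overlap, although Srebp2WT replicate 3 stood close to the Srebp2cKO libraries. The log2 fold change of -0.54 (SE 0.15, 95% interval -0.87 to -0.21) narrowly missed the threshold (edgeR adjusted p = 0.0550). It passed in 4 of the 14 other settings, with DESeq2 (adjusted p = 0.00816, in a test that called 11.7% of tested genes), without the filter on low counts (0.0181), without Srebp2cKO replicate 6 (0.0415) and without Srebp2WT replicate 3 (0.0488). Other settings moved it further from the threshold. With the GC trend removed it was -0.42 (edgeR adjusted p = 0.104). Without Srebp2cKO replicate 7 it was -0.42 (0.144), and without Srebp2WT replicate 1 it was -0.45 (0.201).

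Lgals1 lies on chromosome 15 from 78926725 to 78930465, 3.22 Mb from the start of the deleted gene Srebf2 on the same chromosome. Of 46 other tested genes whose starts lay within 1 Mb of that of Lgals1, 8 were lower and 1 higher, against the 6.61% called among all tested genes. Its nearest tested neighbours did not pass, Pdxp with a log2 fold change of -0.19 (edgeR adjusted p = 0.540) and Nol12 with -0.04 (edgeR adjusted p = 0.850). The part of this location in the Lgals1 values was not tested.

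Lgals3 encodes galectin-3, a galectin of macrophages and activated lymphocytes, and was the least abundant of the 10 genes. It held 5, 3 and 24 counts in Srebp2cKO and 47, 18 and 25 counts in Srebp2WT, that is 0.367, 0.194 and 1.40 CPM against 2.94, 1.16 and 1.69 CPM. Srebp2cKO replicate 8 lay within the Srebp2WT range, far from the other Srebp2cKO libraries. The log2 fold change of -1.50 (SE 0.59) did not pass (edgeR adjusted p = 0.128). Without Srebp2cKO replicate 8 it was -2.78 with an adjusted p of 0.0353, the 1 of 14 other settings in which it passed. Without Srebp2cKO replicate 7 it was -1.08 (edgeR adjusted p = 0.315), and without Srebp2WT replicate 1 it was -1.06 (0.391). The gene, on chromosome 14 from 47367751 to 47386160, passed the filter on low counts through its Srebp2WT libraries.

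Vim, vimentin, lies on chromosome 2 from 13573927 to 13582826. It had 334, 326 and 400 CPM in Srebp2cKO and 324, 272 and 336 CPM in Srebp2WT. The ranges overlapped, and the log2 fold change of 0.19 (95% interval -0.05 to 0.42) did not pass (edgeR adjusted p = 0.263).

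**Figure D2:**
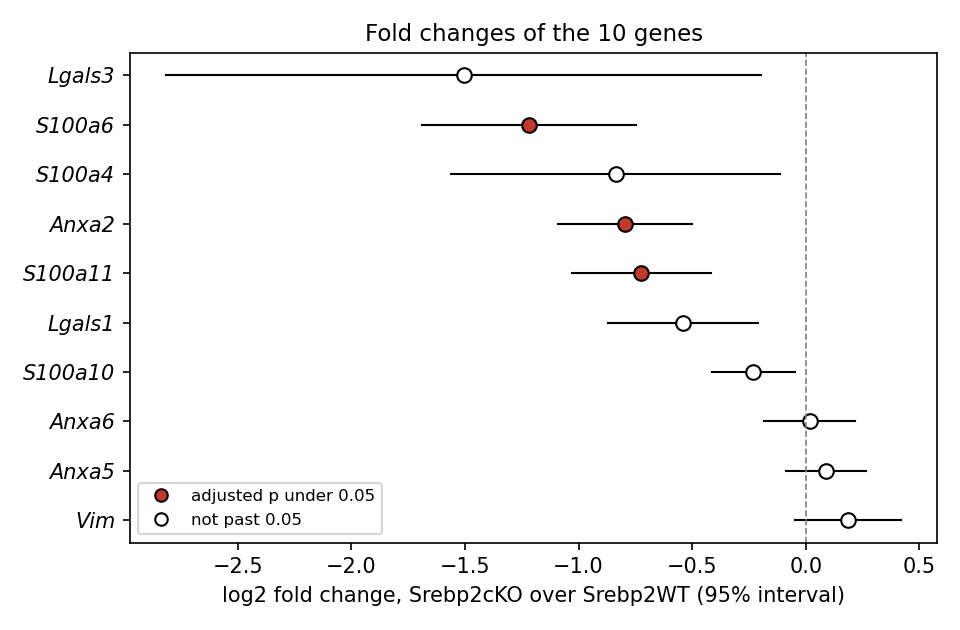
Log2 fold change of each gene, Srebp2cKO over Srebp2WT (x axis), with its 95% interval from edgeR. Filled points passed the adjusted threshold (S100a6, Anxa2 and S100a11); intervals are for single genes, so those of S100a4, S100a10, Lgals1 and Lgals3 exclude 0 although their adjusted p-values did not pass.

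Ranked by CPM per kilobase of the longest annotated transcript, S100a10 stood first at 228 ± 16.1 in Srebp2cKO and 268 ± 18.4 in Srebp2WT. Which transcript the cells express was not determined, so the order of the genes depends on the lengths used. Anxa6 stood at 137 ± 11.7 in Srebp2cKO and 136 ± 11.3 in Srebp2WT, and Vim at 121 ± 13.8 in Srebp2cKO and 106 ± 11.6 in Srebp2WT. The ranges of Anxa6 and Vim overlapped in Srebp2cKO and not in Srebp2WT.

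S100a11 stood at 49.0 ± 9.68 CPM per kilobase in Srebp2cKO and 81.2 ± 8.17 in Srebp2WT, and Lgals1 at 48.2 ± 7.92 in Srebp2cKO and 70.1 ± 12.1 in Srebp2WT, with ranges that overlapped within each genotype. S100a4 stood at 28.7 ± 13.7 in Srebp2cKO and 51.6 ± 17.4 in Srebp2WT, and Anxa5 at 32.9 ± 1.48 in Srebp2cKO and 30.9 ± 1.07 in Srebp2WT. These genes exchanged places in the order, but their ranges overlapped in each genotype, and the range of S100a4 also overlapped that of Lgals1 in both. S100a6 stood at 10.1 ± 2.54 in Srebp2cKO and 23.5 ± 5.27 in Srebp2WT, and Anxa2 at 6.61 ± 0.952 in Srebp2cKO and 11.5 ± 1.25 in Srebp2WT, overlapping in Srebp2cKO alone. Lgals3 was lowest, at 0.460 ± 0.459 in Srebp2cKO and 1.36 ± 0.646 in Srebp2WT. The 3 genes that fell were not the most abundant ones.

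Libraries of a genotype differed from each other in the same direction for most of these genes. Srebp2cKO replicate 7 was the lowest Srebp2cKO library for 8 of the 10 genes, and replicate 8 was the highest for 7. Among Srebp2WT libraries, replicate 3 was the lowest for 8 genes and replicate 1 the highest for 7. How often these orders occur over all tested genes was not counted. Over the whole table, Srebp2cKO replicate 7 differed most from its genotype. Its chi-square over its degrees of freedom was 34.8 against replicate 6 and 17.1 against replicate 8, and that between replicates 6 and 8 was 12.4. Values between genotypes overlapped those within. Srebp2cKO replicate 6 against Srebp2WT replicate 5 gave the lowest, 12.1, and Srebp2cKO replicate 7 against Srebp2WT replicate 1 the highest, 70.2. The mean deviation of the 10 genes from their own averages, in log2 CPM, was -0.31, -0.58 and 0.03 in Srebp2cKO replicates 6, 7 and 8 and 0.48, 0.05 and 0.32 in Srebp2WT replicates 1, 3 and 5. Srebp2cKO replicate 8 and Srebp2WT replicate 3 thus stood next to each other. Each gene weighs equally in this mean, so Lgals3, with few counts, moved it most. The deviation of Lgals3 ran from -1.77 in Srebp2cKO replicate 7 to 1.48 in Srebp2WT replicate 1, and was 0.47 in Srebp2cKO replicate 8. The SD of log2 CPM within genotypes was 0.93 for Lgals3, 0.63 for S100a4 and 0.36 for S100a6, against 0.06 for Anxa5 and a median of 0.15 over all tested genes.

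**Figure D3:**
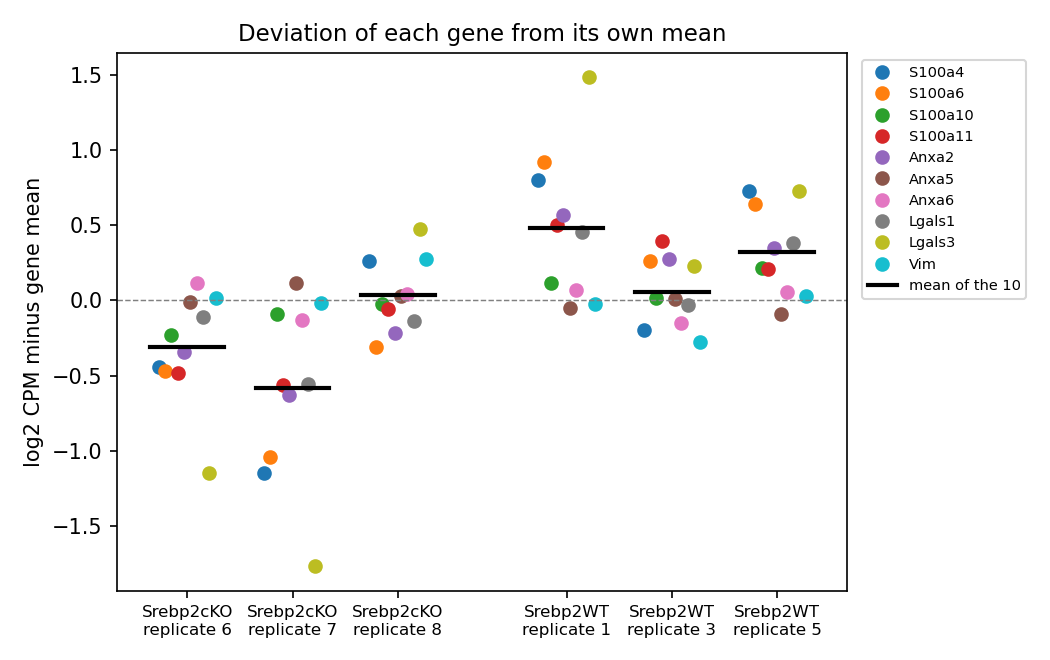
Log2 CPM of each gene minus its mean over the 6 libraries (y axis), by library, with black bars for the mean of the 10 genes. Srebp2cKO replicate 7 has the lowest mean (-0.58) and Srebp2WT replicate 1 the highest (0.48), and the means of Srebp2cKO replicate 8 (0.03) and Srebp2WT replicate 3 (0.05) nearly meet.

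Among 5438 other genes with a mean log2 CPM of at least 5, those whose centred values came closest to this mean profile were Il18r1, a chain of the interleukin-18 receptor, Itgae, the integrin chain CD103, Osbpl3, an oxysterol-binding protein relative, Cdc25b, a phosphatase of the cell cycle, and Fgl2, a secreted effector molecule of Tregs. Their root mean square distances over the 6 libraries were 0.0759 to 0.118 log2 units, against a median of 0.398 for all candidates. Itgae stood at 113 ± 31.4 CPM in Srebp2cKO and 168 ± 20.1 CPM in Srebp2WT, and Fgl2 at 36.1 ± 4.36 CPM in Srebp2cKO and 55.4 ± 7.72 CPM in Srebp2WT. These genes were picked for their likeness over the same 6 libraries, so their values are a description.

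Relatives in the same families were mostly low or did not pass. Of 13 other S100-named genes, 2 were tested, S100a13 and S100pbp, an S100P-binding protein, and none passed. S100a8 and S100a9, which are abundant in neutrophils and monocytes, had 0 counts in every library, and the neighbours of S100a4 in the cluster, S100a3 and S100a5, had at most 5 and 1 counts. Of 9 other annexins, 5 were tested (Anxa1, Anxa4, Anxa7, Anxa9 and Anxa11), all with negative log2 fold changes of -0.49 to -0.18 and none past the threshold. Negative values were found for 5968 of all 11932 tested genes. Low levels limit Anxa9 (-0.49, SE 0.43), with means of 0.74 CPM in Srebp2cKO and 1.06 CPM in Srebp2WT. The same holds for Anxa1 (-0.41, SE 0.59), with means of 0.68 and 0.94 CPM. Anxa11 came closest, at 26.5 ± 4.57 CPM in Srebp2cKO and 36.6 ± 3.93 CPM in Srebp2WT (log2 fold change -0.47, edgeR adjusted p = 0.0580). In 6 of the 15 other settings 1 annexin of this list passed, as lower. Of 9 genes that comprise other galectins, a galectin-related gene and a galectin-3 ligand, 6 were tested and none passed. That ligand, Lgals3bp, stood at 49.3 ± 10.1 CPM in Srebp2cKO and 75.5 ± 15.0 CPM in Srebp2WT (log2 fold change -0.62, edgeR adjusted p = 0.0508). In 7 of the 15 other settings 1 gene of this list passed, as lower. Lgals4 and Lgals6 are near-identical copies, so the split of reads between them is uncertain.

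Of 16 tested partners and cytoskeletal genes, 1 rose and 0 fell, with a median log2 fold change of -0.04. Of the 16, 11 had negative values, and 3 with the GC trend removed. The 1 that rose was Ezr, ezrin, which links actin to the membrane, at 348 ± 5.93 CPM in Srebp2cKO and 288 ± 4.59 CPM in Srebp2WT (log2 fold change 0.27, edgeR adjusted p = 0.0389), a call lost in 6 of the 14 other settings. Ahnak, a giant scaffold protein that binds the S100A10 and annexin A2 complex, stood at 1536 ± 291 CPM in Srebp2cKO and 1586 ± 180 CPM in Srebp2WT (log2 fold change -0.05, edgeR adjusted p = 0.843). Myh9, the nonmuscle myosin heavy chain bound by S100A4, had a log2 fold change of -0.11 (edgeR adjusted p = 0.363).

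Other genes typical of effector-memory T cells had log2 fold changes on both sides of 0, and those that passed at the threshold used here were lower. Of 21 tested, 7 fell and 0 rose, with a median log2 fold change of -0.26. The 6 with the smallest p were Ccl5, a chemokine (-1.84), Klrg1, a receptor of terminally differentiated cells (-2.93), Cxcr3, a chemokine receptor (-1.10), Il18rap, a chain of the interleukin-18 receptor (-1.06), Prdm1, the gene for BLIMP-1 (-0.47), and Itgal, the LFA-1 alpha chain (-0.43). Crip1 and Emp3, small proteins that are often listed with S100a4 and S100a6, had log2 fold changes of 0.05 and 0.02 (edgeR adjusted p = 0.856 and 0.939), and Cd44, a classical memory marker, had -0.12 (edgeR adjusted p = 0.540). With DESeq2, with no filter on low counts and without Srebp2cKO replicate 6, 9 fell and 2 rose, and at a false discovery rate of 0.1, 10 fell and 2 rose. Without Srebp2WT replicate 1 the number that fell was 3, in a fit where 135 of all tested genes were called lower, in place of 506.

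Of 13 genes of naive and resting T cells, all tested, 5 rose and 0 fell, with a median log2 fold change of 0.40. The 5 were Bcl2, a survival gene (0.52), Foxp1 (0.38) and Klf2 (0.46), transcription factors of quiescent T cells, Ccr7, the lymph node homing receptor (0.45), and Actn1, alpha-actinin (0.39). None of them passed without Srebp2WT replicate 1 or without Srebp2WT replicate 3, fits in which 32 and 29 of all tested genes were called higher, in place of 283. Their log2 fold changes were then 0.28 to 0.46 and 0.40 to 0.52.

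**Figure D4:**
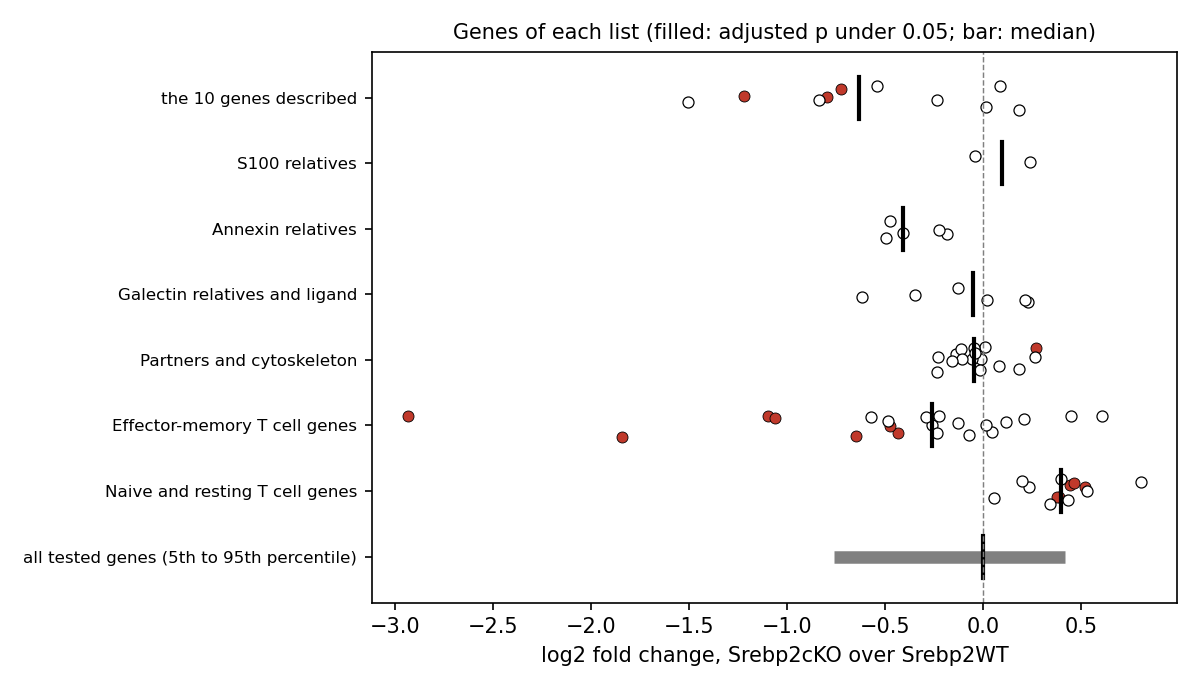
Log2 fold changes (x axis) of the tested genes in each list, Srebp2cKO over Srebp2WT, with filled points for genes past the adjusted threshold and a bar for each median. The median of the 10 genes described (-0.63) lies left of that of all tested genes (-0.00015), whose 5th to 95th percentile runs from -0.76 to 0.42, and that of naive and resting genes (0.40) lies right of it. The 10 genes and the lists were chosen with earlier results of these data known.

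Several of the 10 genes are also expressed by myeloid, B or stromal cells, so markers of those cells were summed as CPM of total counts. The 11 myeloid markers summed to 51.9 to 59.9 CPM in Srebp2cKO and 70.6 to 108 CPM in Srebp2WT. Most of that sum was Cybb, with 421 to 626 counts in Srebp2cKO and 719 to 1299 in Srebp2WT, the 1 of 4 tested myeloid markers that passed (log2 fold change -0.87, edgeR adjusted p = 0.0216). Others went the opposite way in value: Itgam had a log2 fold change of 1.07 (edgeR adjusted p = 0.108), Cd68 had 0.35 with every Srebp2cKO library higher (edgeR adjusted p = 0.270), and Fcgr3, not tested, held 9 to 16 counts in Srebp2cKO and 2 to 4 in Srebp2WT. Cst3, the other tested marker, had -0.30 (edgeR adjusted p = 0.207). Lyz2 had at most 5 counts, Csf1r and Cd14 at most 3, Adgre1 at most 7, Lyz1 at most 1 and Csf3r 0 in every library. The 6 B cell markers summed to 25.8 to 34.4 CPM in Srebp2cKO and 56.4 to 79.5 CPM in Srebp2WT, mostly Cd74. Of 4 tested B cell markers 3 fell, Cd74 (log2 fold change -1.14, edgeR adjusted p = 0.00441), Cd22 (-1.52, adjusted p = 0.0101) and Cd79b (-0.68, adjusted p = 0.0492), while Cd79a had 0.56 (adjusted p = 0.308). Ms4a1 had at most 2 counts and Pax5 at most 1. The 9 markers of stroma and endothelium summed to 217 to 231 CPM in Srebp2cKO and 168 to 181 CPM in Srebp2WT, nearly all of it Pecam1, which rose (log2 fold change 0.39, edgeR adjusted p = 0.0139), with 0 counts of Pdgfra, Lyve1 and Pdpn in every library. Col1a1, the other tested marker of that list, had -0.75 with every Srebp2cKO library lower (edgeR adjusted p = 0.234), on 6 to 18 counts. Cdh5 and Col3a1 had at most 1 count, Pdgfrb at most 2 and Col1a2 at most 16, so this sum is in effect the level of Pecam1. The part of these differences in the values of the 10 genes was not tested.

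Srebp2cKO replicate 8, where S100a4 and Lgals3 were highest among Srebp2cKO libraries, held 7 counts of Adgre1, 3 of Cd14 and 8 of Hbb-bs, against at most 1, 0 and 1 in Srebp2cKO replicates 6 and 7. These 3 markers were chosen after their values were seen, and replicate 8 also had the most total counts (17249898). Others were not highest there: Fcgr3 held 10, 16 and 9 counts and Cd68 56, 73 and 65 counts in Srebp2cKO replicates 6, 7 and 8. In the same order, the summed myeloid markers were 55.0, 51.9 and 59.9 CPM and the summed B cell markers 28.9, 25.8 and 34.4 CPM, both highest in replicate 8. Natural killer cell markers, at 5.96, 7.55 and 3.88 CPM, were lowest there. Srebp2WT replicate 1, where Lgals3 was highest of all libraries, held 1 count each of Adgre1 and Cd14 and 2 of Fcgr3. Its summed myeloid markers were nevertheless the highest of all libraries, at 108 CPM against 78.8 and 70.6 CPM in Srebp2WT replicates 3 and 5. So were its summed B cell markers, at 79.5 CPM against 56.4 and 56.8 CPM in those replicates. The summed dendritic markers were 1.15 to 3.38 CPM in Srebp2cKO and 2.52 to 4.12 CPM in Srebp2WT. The natural killer cell markers summed to 3.88 to 7.55 CPM in Srebp2cKO and 4.52 to 5.72 CPM in Srebp2WT, with Ncr1 and Klra8 at 0 in every library. These sums overlapped, but the 2 tested members went opposite ways: Klrb1c fell, with 9 to 14 counts in Srebp2cKO and 24 to 42 in Srebp2WT (log2 fold change -1.36, edgeR adjusted p = 0.0399), and Eomes had 0.66 (edgeR adjusted p = 0.170).

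Plasma cell markers summed to 60.1 to 64.3 CPM in Srebp2cKO and 63.7 to 66.9 CPM in Srebp2WT, mostly Xbp1. Mzb1 had at most 1 count, Sdc1 at most 9 and Jchain at most 13. CD8 T cell markers summed to 8.70 to 10.3 CPM in Srebp2cKO and 7.01 to 7.59 CPM in Srebp2WT. Platelet markers reached at most 2.32 CPM in Srebp2cKO and 2.44 CPM in Srebp2WT, erythroid markers at most 0.696 CPM in Srebp2cKO and 0.257 CPM in Srebp2WT, and the 1 gamma delta T cell marker in the table, Sox13, at most 3 counts.

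**Figure D5:**
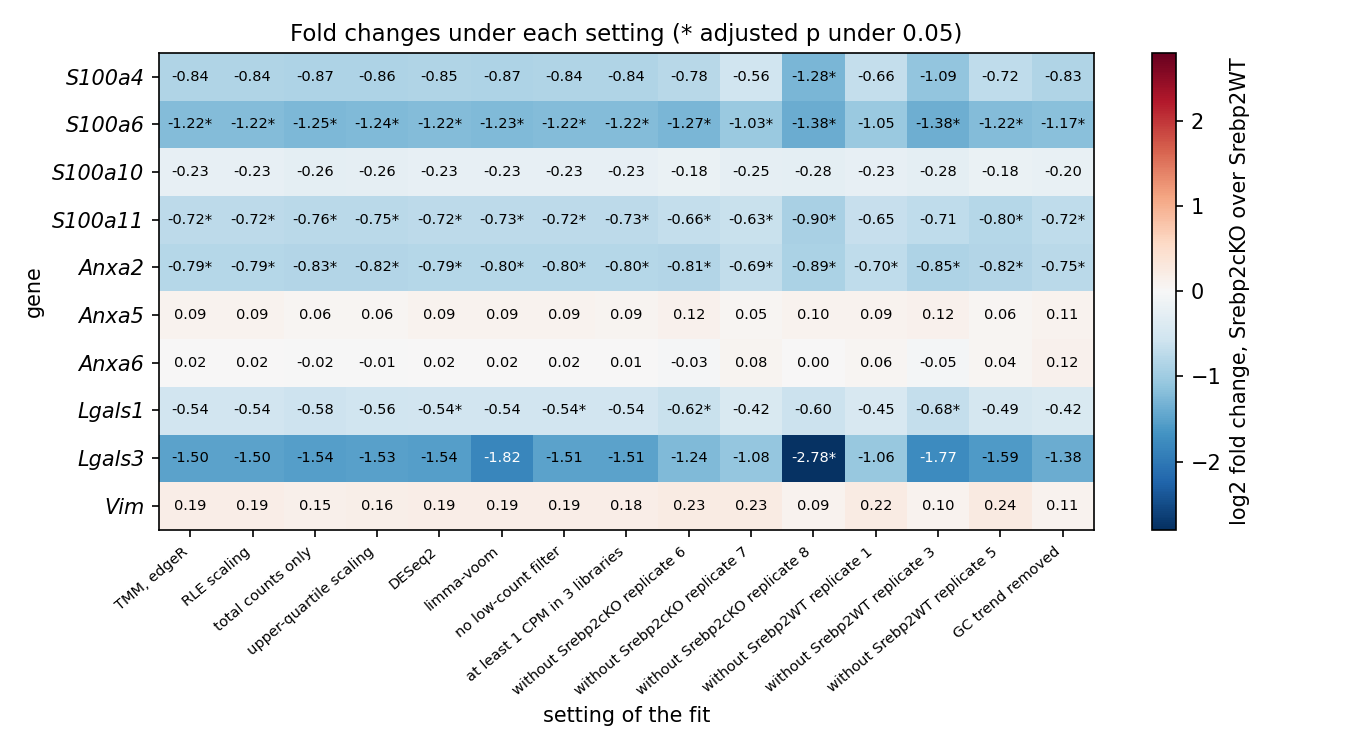
Log2 fold changes (colour and number, Srebp2cKO over Srebp2WT) of each gene (rows) in the fit with TMM scaling and edgeR and in 14 other settings (columns), with asterisks where the adjusted p passed. Anxa2 passed in every column, S100a6 in all but the fit without Srebp2WT replicate 1, and S100a10, Anxa5, Anxa6 and Vim in none.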

How the data were processed

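Libraries were made with a Qiagen RNeasy kit and a KAPA RNA HyperPrep kit with ribosomal RNA depletion, per the labels' protocols. The authors deposited raw counts per gene symbol, and HISAT2 2.2.1, Cell Ranger and mm10 are named, per the submitters' processing notes, with no role given. No source used here gives the counting tool, annotation or strand setting. Columns were matched to samples by title.

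Of 24421 genes, 11932 passed filterByExpr and were tested with edgeR 4.0.16 in R 4.3.3 (TMM factors, quasi-likelihood F test, Srebp2cKO over Srebp2WT, Benjamini-Hochberg over all tested genes, false discovery rate 0.05), a fit tested on simulated data. The SE is the size of the log2 fold change divided by the square root of F. DESeq2 1.42.0 and limma 3.58.1 (voom) were alternatives, with other scalings, filters, each library left out and, chosen after seeing the data, removal of a GC trend. Libraries of one genotype differed by more than sampling noise (chi-square over its degrees of freedom, 6.71 to 34.8). Positions came from GENCODE M21 (GRCm38). The 10 genes and the lists were chosen with earlier results of these data known. Named besides the 10 were up to 6 genes of each list that passed, the 5 most alike genes, label checks and neighbours. Anxa11, Lgals3bp, Ahnak, Myh9, Crip1, Emp3 and Cd44 were named after their values were seen, as were Il2ra, Ctla4 and Ikzf2. Of the genes first listed, 2 are not reported here.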

Additional observations from a re-analysis of the deposited data

How the results depend on the processing

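The number of the 10 genes called was 3, and 3 or 4, none of them higher, with RLE, total-count or upper-quartile scaling, DESeq2, limma-voom, no filter, a filter of 1 CPM in 3 libraries, a false discovery rate of 0.1 and the GC trend removed. It ran from 1 (without Srebp2WT replicate 1) to 5 (without Srebp2cKO replicate 8) with single libraries left out. The number of all genes called was 789, against 1392 with DESeq2, 1205 without the filter, 1893 at a false discovery rate of 0.1 and 167 to 1487 with single libraries left out. With total counts only it was 184 higher and 570 lower, in place of 283 and 506. The log2 fold change of Anxa6 turned negative with total counts only (-0.018), upper-quartile scaling (-0.0054), and without Srebp2cKO replicate 6 (-0.035) or Srebp2WT replicate 3 (-0.050), the lowest of the fits that left out 1 library, whose highest value was 0.077. That of Foxp3 turned positive with the GC trend removed (0.066). Each cause was not tested. No paired analysis was possible because the replicate numbers of the genotypes are not shared. Low counts limit Lgals3, with 3 to 47 counts per library.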
